A study of Homo sapiens with 9 samples.

Results

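The genes described are the aryl hydrocarbon receptor (AhR, gene AHR), its repressors AHRR and TIPARP, its target enzymes CYP1A1, CYP1A2, CYP1B1, ALDH3A1 and UGT1A6, and the retinol enzyme LRAT. They are 9 gene symbols and 10 Ensembl records, because AHRR had 2 records, among 60683 records in the series, and all 10 were among the 22672 records with counts summing to at least 10. The set was chosen by its measured counts with the compound 32-134D against vehicle. Its values in both comparisons with 32-134D are therefore given as a description and without a test. The comparison between the vehicle groups uses the same vehicle libraries, so its FDRs for the set are not independent of that choice. Hep3B, a human liver cancer line, was sequenced as RNA in 9 libraries that form 3 groups of 3 biological replicates, all collected after 24 h. Vehicle at 20% O2 was DMSO in ordinary culture oxygen, vehicle at 1% O2 was DMSO in hypoxia, and 32-134D at 1% O2 was the compound, an inhibitor of hypoxia-inducible factors (HIFs), in hypoxia. No library of 32-134D at 20% O2 was analysed here, and all cultures are of a single cell line. The dose stands in the study's results text and a figure legend, and not in the labels.

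AhR is a transcription factor that waits in the cytoplasm in a complex with HSP90 chaperones and co-chaperones such as p23 (PTGES3). When a ligand such as a dioxin, a planar hydrocarbon or a tryptophan metabolite binds, it moves to the nucleus, pairs with ARNT and binds xenobiotic response elements, whose core is GCGTG. ARNT is also the partner of the HIF alpha subunits, which bind cores such as ACGTG, the only HIF form searched for here. A window without ACGTG may therefore still hold a HIF site. In liver cells the classical AhR targets are the CYP1 monooxygenases, while AHRR competes with AhR and TIPARP, an ADP-ribosyltransferase, modifies it, both as negative feedback.

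The stretches below are shown because they hold these cores close to the transcription starts of the members. Windows of 250 bases before a start were taken from RefSeq on GRCh38.p14 for 7 of the 9 members, 11 windows in all, and each was searched on both strands. GCGTG was in 5 windows, of 4 members (AHRR, CYP1A1, TIPARP and UGT1A6), and 32.2% of all 35116 such windows hold it. The longer form TNGCGTG, which contains GCGTG, was in 2 windows, of AHRR and UGT1A6, against 4.52% of all windows. ACGTG was in 2 windows, of AHR and CYP1A1, against 18.5% of all windows. Each line gives 30 bases, 5′ to 3′ on the strand of the gene, with the core in capitals, and CACGC and CACGT are the 2 cores read on the other strand:
CYP1A1, chr15:74725564-74725593, minus strand: ggaaggagGCGTGgccaCACGTacaagccc
AHRR, chr5:321671-321700, plus strand: gggcgggcggctcGCGTGccggggtggggc
AHRR, second start, chr5:322555-322584, plus strand: tgcagaagggtggGCGTGtgcgcgcgttct
UGT1A6, chr2:233691489-233691518, plus strand: ggaacaggaactcGCGTGccagccaggtgt
TIPARP, chr3:156674369-156674398, plus strand: acgcgagaaaggaCACGCcccctcgcggga
TIPARP, chr3:156674435-156674464, plus strand: tcgaacgaacgcgCACGCgcgcgcaggggg
AHR, chr7:17298475-17298504, plus strand: gtcctacgtcatCACGTGccgggatgaggg

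CYP1A1 had a GCGTG and an ACGTG core side by side, the first of them 57 bases before the start. In AHR the letters CACGTG read the same on both strands, so ACGTG matched on each. The window of the second AHRR start held a further GCGTG core, 247 bases before that start, which is not among the lines above. The whole window of the first AHRR start, chr5:321464-321713 on the plus strand, is shown because its single core lies 30 bases before the start:
AHRR window: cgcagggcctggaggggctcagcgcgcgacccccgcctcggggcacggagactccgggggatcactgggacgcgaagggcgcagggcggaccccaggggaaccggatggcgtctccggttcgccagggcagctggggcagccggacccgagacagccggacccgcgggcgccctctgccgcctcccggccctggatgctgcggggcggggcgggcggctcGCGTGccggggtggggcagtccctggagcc

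In GENCODE 29 on GRCh38, AHR spans chr7:16916359-17346152, AHRR chr5:304176-438291, TIPARP chr3:156673235-156706770 and LRAT chr4:154626945-154753118, all on the plus strand. CYP1A1 (chr15:74719542-74725610, minus) and CYP1A2 (chr15:74748844-74756202, plus) are neighbours, CYP1B1 is at chr2:38066973-38109902 (minus), ALDH3A1 at chr17:19737984-19748943 (minus) and UGT1A6 at chr2:233691607-233773300 (plus). The cores shown for AHR, AHRR, CYP1A1 and TIPARP lie inside the annotated span of their gene, which has further starts, and that of UGT1A6 lies before it, within the span of UGT1A7. UGT1A6 shares 64.4% of its exon bases with other genes, mainly the other members of the UGT1A cluster, so its reads cannot be assigned to it with certainty. AHR shares 32.3% of its exon bases with non-coding genes, and CYP1B1 shares 13% with genes that include its antisense partner, and the strand setting of the counting is not given in the sources used here. CYP1A1 shares no identical stretch of 50 bases with CYP1A2 or CYP1B1. Of the 2 AHRR records, ENSG00000286169 had 1860 counts and ENSG00000063438 had 189, which was 8.06% to 10.5% of the pair in every library, so the split of reads between them is uncertain.

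The libraries held 6013980 to 40549699 counts. Levels are given as CPM, counts scaled to a common library size with TMM factors. In the check of the conditions, CA9, a carbonic anhydrase induced by HIF, was higher in hypoxia by 4.38 on the log2 scale and changed by -3.36 with 32-134D at 1% O2. Of 8 liver cancer markers, ALB and AFP among them, all were detected, with summed levels of 17978 to 19372 CPM in vehicle at 20% O2, 13059 to 16400.5 CPM in vehicle at 1% O2 and 11363 to 17747 CPM with 32-134D. The 8 markers of other cell types summed to 434 to 697 CPM, nearly all of it from the epithelial marker EPCAM (425 to 692 CPM), and the other 7 summed to 4.11 to 12.5 CPM, with 2 or 3 of them at 0 throughout each group. Between 32-134D and vehicle at 1% O2, 1 liver marker was called higher (APOB, at 3.12) and 3 lower (TF, FGB and TTR). Of the other markers, 3 were called higher (COL1A1, COL1A2 and PECAM1). Over all genes, 16.2% were called higher and 13.7% lower. In hypoxia, APOB was at -3.47. Without replicate 3 of 32-134D, the calls of TF, FGB, TTR and COL1A1 were lost, and APOB was at 3.28. Replicate 3 of 32-134D stood apart from its group: the SD of its log2 difference from the other replicates was 0.45 over 13911 genes, against 0.19 to 0.30 in the other 8 libraries, and 4.14% of genes differed over 2-fold from them, against 0.201% to 1.37%. The members' differences and the list counts with 32-134D are therefore given with and without that library.

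AHR itself had overlapping levels in the 3 groups. It had 131, 115 and 122 CPM in replicates 1, 2 and 3 of vehicle at 20% O2, 123, 123 and 116 CPM in vehicle at 1% O2, and 127, 127 and 118 CPM in 32-134D at 1% O2. In bulk RNA, fewer cells and less RNA per cell cannot be told apart. The hypoxic difference of AHR was -0.03 on the log2 scale (SE 0.07, edgeR FDR 0.768), with a 95% interval of -0.18 to 0.13. With 32-134D the difference was 0.04 (SE 0.07) from vehicle at 1% O2 and 0.01 (SE 0.07) from vehicle at 20% O2, and without replicate 3 these were 0.07 and 0.04. The direction of the last difference turned with the scaling, to -0.02 with total library size. Per length, AHR was the most abundant of the members in vehicle at 20% O2, at 15.2 CPM per kb of exon, ahead of TIPARP at 5.97 and CYP1A1 at 1.93 CPM per kb. CYP1B1, UGT1A6, ALDH3A1 and LRAT followed at 0.652, 0.471, 0.349 and 0.199 CPM per kb.

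**Figure D1:**
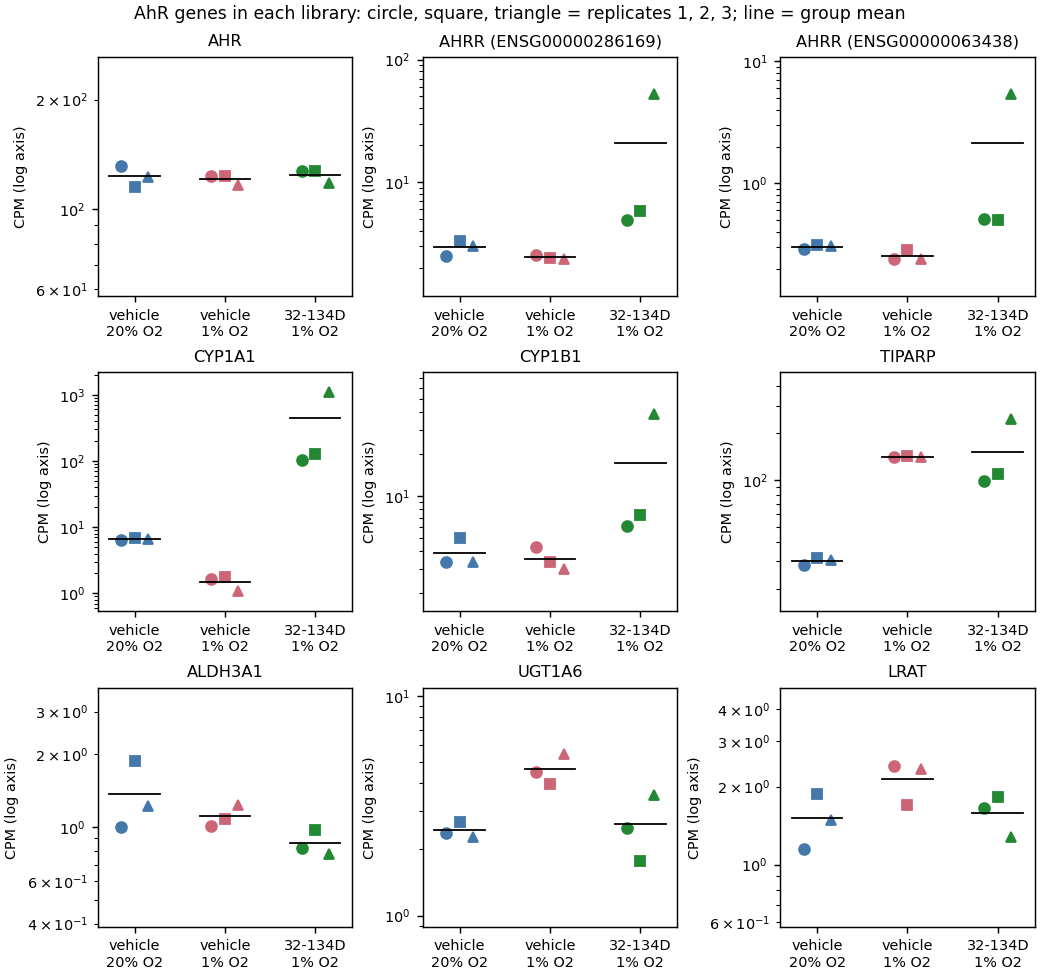
Level of AhR genes in each of the 9 libraries, in CPM on a log axis that differs between panels, for vehicle at 20% O2, vehicle at 1% O2 and 32-134D at 1% O2. Circles, squares and triangles are replicates 1, 2 and 3 and the line is the group mean; CYP1A2, with 18 counts in all, is left out. AHR stayed between 115 and 131 CPM, while the triangle of 32-134D lies far above its group for CYP1A1, both AHRR records and CYP1B1.

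CYP1A1, the monooxygenase most often used as a readout of AhR, had the widest range of the members. It had 6.45, 6.75 and 6.69 CPM in vehicle at 20% O2 and 1.64, 1.79 and 1.07 CPM in vehicle at 1% O2, so that every hypoxic vehicle library was below every library at 20% O2. In 32-134D at 1% O2 it had 104, 128 and 1086 CPM, all above both vehicle groups. The groups do not overlap, and replicate 3 alone held 23750 of the 31696 counts of the gene.

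The hypoxic difference of CYP1A1 was -2.15 on the log2 scale (SE 1.01, edgeR FDR 0.0886), which missed the threshold in the fit of all 9 libraries. That fit estimates the spread from all 3 groups, including the 32-134D libraries. In a fit of only the vehicle groups the FDR was 6.76e-11, and without replicate 3 of 32-134D it was 3.2e-12, at the same log2 fold change. Leaving out that replicate was chosen after seeing the data. The choice of the set used the same hypoxic vehicle libraries, so these FDRs are not independent of it. With 32-134D, CYP1A1 was 293-fold higher than in vehicle at 1% O2 (log2 8.19, SE 0.90) and 66.1-fold higher than in vehicle at 20% O2 (log2 6.05, SE 0.81). Without replicate 3 the log2 differences were 6.28 and 4.12.

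CYP1A2, the neighbouring hepatic member of the family, was close to undetected. It had 0, 1 and 0 counts in vehicle at 20% O2, 0, 0 and 1 in vehicle at 1% O2, and 0, 3 and 13 in 32-134D at 1% O2. The pooled count relative to library size was 18.4-fold higher with 32-134D than in vehicle at 1% O2. The ratio to vehicle at 20% O2 was 9.65. Both ratios are a description, as each vehicle group had 1 count in all. Replicate 3 held 13 of the 16 counts with 32-134D, and the other 2 libraries together had no more than 3. The gene reached the minimum of 10 summed counts only through the libraries of 32-134D. Its level could not be compared at this depth without replicate 3.

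CYP1B1, the extrahepatic member of the family, which metabolises estrogens and planar hydrocarbons, had 3.37, 5.02 and 3.38 CPM in vehicle at 20% O2. It had 4.32, 3.35 and 2.97 CPM in vehicle at 1% O2 and 6.1, 7.27 and 38.5 CPM in 32-134D at 1% O2. The vehicle groups overlapped and every library of 32-134D was above them. The hypoxic difference was -0.05 on the log2 scale (SE 0.62, edgeR FDR 0.958). With 32-134D the log2 difference was 2.24 (SE 0.54) from vehicle at 1% O2 and 2.19 (SE 0.58) from vehicle at 20% O2, and 0.89 and 0.87 without replicate 3.

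The repressor AHRR followed the same order of groups. Its main record had 2.51, 3.3 and 2.98 CPM in vehicle at 20% O2, 2.54, 2.4 and 2.35 CPM in vehicle at 1% O2, and 4.94, 5.76 and 52.4 CPM in 32-134D at 1% O2. The vehicle groups overlapped and the lowest library of 32-134D was above the highest vehicle library. The hypoxic difference was -0.24 (SE 0.83, edgeR FDR 0.83). With 32-134D it was 3.08 (SE 0.70) on the log2 scale above vehicle at 1% O2 and 2.83 (SE 0.75) above vehicle at 20% O2, and without replicate 3 it was 1.13 and 0.88. The second record, at 0.239 to 0.314 CPM in vehicle and 0.511, 0.505 and 5.4 CPM with 32-134D, gave 2.98 and 2.72, or 1.00 and 0.75 without replicate 3. AHRR overlaps PDCD6, a calcium-binding protein gene, over 3.18% of its exon bases, and PDCD6 differed by -0.91 in hypoxia and by 0.86 with 32-134D at 1% O2.

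TIPARP, the other feedback repressor, was high in hypoxia with and without the compound. It had 28.6, 31.4 and 30.4 CPM in vehicle at 20% O2 and 140.2, 143 and 140.4 CPM in vehicle at 1% O2, a rise of 4.69-fold (log2 2.23, SE 0.26, edgeR FDR 3.62e-06) with no overlap. In 32-134D at 1% O2 it had 97.9, 109 and 245 CPM, so that replicates 1 and 2 were below every library of vehicle at 1% O2 and replicate 3 was above them all. The log2 difference from vehicle at 1% O2 was 0.09 (SE 0.24), and it was -0.45 without replicate 3 and -0.00 with a replicate block. It was 2.32 (SE 0.26) from vehicle at 20% O2, or 1.78 without replicate 3. The direction of TIPARP relative to hypoxic vehicle thus depended on a single library.

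UGT1A6, which conjugates planar phenols with glucuronic acid, was the second member to rise in hypoxia. It had 2.37, 2.67 and 2.28 CPM in vehicle at 20% O2 and 4.48, 3.96 and 5.43 CPM in vehicle at 1% O2, a rise of 1.94-fold (log2 0.96, SE 0.24, edgeR FDR 0.00331) with no overlap. In 32-134D at 1% O2 it had 2.5, 1.78 and 3.52 CPM, below every library of vehicle at 1% O2 and overlapping vehicle at 20% O2. The log2 difference was -0.85 (SE 0.22) from vehicle at 1% O2 and 0.10 (SE 0.25) from vehicle at 20% O2, and -1.10 and -0.13 without replicate 3. UGT1A1, the bilirubin-conjugating enzyme of the same cluster, which shares its last exons with UGT1A6, differed by -0.01 in hypoxia (SE 0.88, edgeR FDR 0.995). It rose with 32-134D at 1% O2 against vehicle at 1% O2, by 2.52 on the log2 scale (SE 0.69, edgeR FDR 0.00726), or by 0.68 without replicate 3. UGT1A1 was chosen with earlier results of these data known, so its FDRs are a description. UGT1A1 had 1.67, 2.29 and 18 CPM with 32-134D, so that replicate 3 held most of the difference.

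ALDH3A1, an aldehyde dehydrogenase, was low in all groups, with 1, 1.88 and 1.22 CPM in vehicle at 20% O2, 1.01, 1.08 and 1.24 CPM in vehicle at 1% O2 and 0.823, 0.976 and 0.777 CPM with 32-134D. Its libraries with 32-134D lay below all the vehicle libraries. The differences were small: -0.20 in hypoxia (SE 0.28, edgeR FDR 0.572), -0.36 (SE 0.26) with 32-134D against vehicle at 1% O2 and -0.56 (SE 0.28) against vehicle at 20% O2, the last pair being -0.31 and -0.49 without replicate 3. LRAT, which esterifies retinol for storage, had 1.15, 1.88 and 1.49 CPM in vehicle at 20% O2, 2.41, 1.7 and 2.35 CPM in vehicle at 1% O2 and 1.65, 1.82 and 1.28 CPM with 32-134D. All 3 groups of LRAT overlapped. Its hypoxic difference was 0.58 (SE 0.25, edgeR FDR 0.0647). The FDR was 0.0288 when replicate 3 of 32-134D was left out, an omission chosen after seeing the data. With 32-134D it was -0.45 (SE 0.23) against vehicle at 1% O2 and 0.13 (SE 0.26) against vehicle at 20% O2, or -0.34 and 0.25 without replicate 3.

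**Figure D2:**
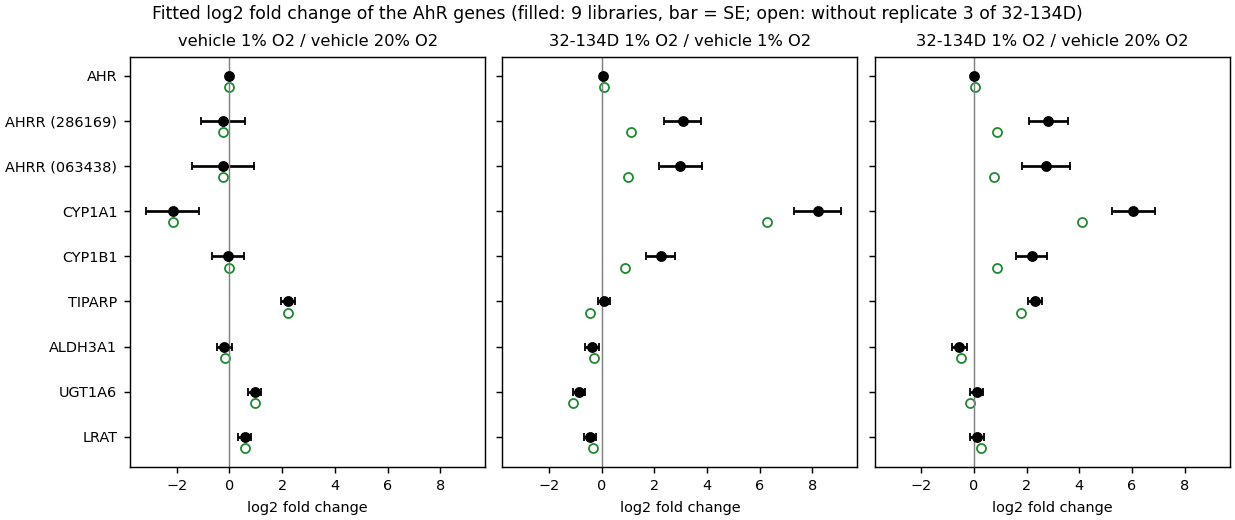
Fitted log2 fold change of AhR genes (rows) in the 3 comparisons (panels). Filled points are from the fit of 9 libraries with their standard error, open green points from the fit without replicate 3 of 32-134D; the numbers after AHRR are the last digits of its records. CYP1A1 had the largest differences, of -2.15, 8.19 and 6.05, and AHR lay at 0 in each panel.

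Counted together, 2 of the 10 records were called higher in hypoxia (FDR below 0.05 and fold change above 1.5), where 19.5% of all genes tested were, and 0 were called lower, where 20.3% of all genes were. By an unadjusted p under 0.05, 3 records changed, each upward, and DESeq2 also called 2 higher and 0 lower but gave no adjusted p for CYP1A1 and the main AHRR record. Without replicate 3 of 32-134D, an omission chosen after seeing the data, 3 records were called higher and 1 lower. The libraries of the vehicle groups did not overlap upward for 2 records, against 32.3% of all genes, or downward for 2 records, CYP1A1 and the second AHRR record, against 28.1%. The median log2 fold change of the 10 records was -0.12, against 0.00 over all genes. Of all calls in hypoxia 49% were higher, and 34.5% with total library size, a scaling that moved the median gene by -0.21.

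Against vehicle at 1% O2, which supplies the same vehicle libraries as the hypoxia comparison, 4 of the 10 records lay past both thresholds upward and 1 downward with 32-134D, where 16.2% and 13.7% of all genes did. Without replicate 3, 3 lay past them upward and 1 downward. Against vehicle at 20% O2, 4 lay past them upward and 0 downward, where 3% and 0.516% of all genes did, and the counts were again 4 and 0 without replicate 3. All 3 libraries with 32-134D were above all 3 of vehicle at 20% O2 for 5 records, and below for 1, against 17% and 12.8% of all genes, and relative to vehicle at 1% O2 they were above for 4 and below for 2, against 25.4% and 30.8%. The records were chosen with these comparisons known, and nothing is read from these counts. Of all calls against vehicle at 1% O2, 54.2% were higher, and 72% with total library size, which moved the median gene by 0.17.

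Among the members, replicate 3 of 32-134D differed most from replicates 1 and 2 in those that were higher with 32-134D. Replicate 3 is itself part of the level by which those members were higher. The CPM of replicate 3 relative to the mean of replicates 1 and 2 was 9.37-fold for CYP1A1 and 5.76-fold for CYP1B1. It was 9.8-fold and 10.6-fold for the AHRR records and 2.36-fold for TIPARP. It was 11.8-fold for CYP1A2, which rests on 16 counts, 1.65-fold for UGT1A6, 0.933-fold for AHR, 0.864-fold for ALDH3A1 and 0.74-fold for LRAT. Over 13910 genes with a mean CPM of at least 1, the central 95% of log2 ratios ran from -1.09 to 0.77, and 1.36% of genes were over 2-fold higher and 3.02% over 2-fold lower in replicate 3. The ratio was thus over 2-fold for the members with the largest differences from vehicle and for TIPARP, and under 2-fold for AHR, ALDH3A1, UGT1A6 and LRAT. The total count of that library was 21044373 and its share of mitochondrial counts 4%, within the range of 3.83% to 4.57% of all libraries. Liver markers were low in it: TTR had 37.9, 34.5 and 9.79 CPM in replicates 1, 2 and 3 of 32-134D, FGB had 33.5, 33.1 and 6.86 CPM and TF had 1545, 1505 and 584 CPM. In that library these markers were lower, and CYP1A1, AHRR, CYP1B1 and TIPARP higher, than in replicates 1 and 2. The part of these markers in the result was not tested. Across the 9 libraries, log2 CPM of AHRR and CYP1B1 had a Pearson r of 0.99 and AHRR and CYP1A1 one of 0.88, values that replicate 3 shares in and that serve as a description.

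**Figure D3:**
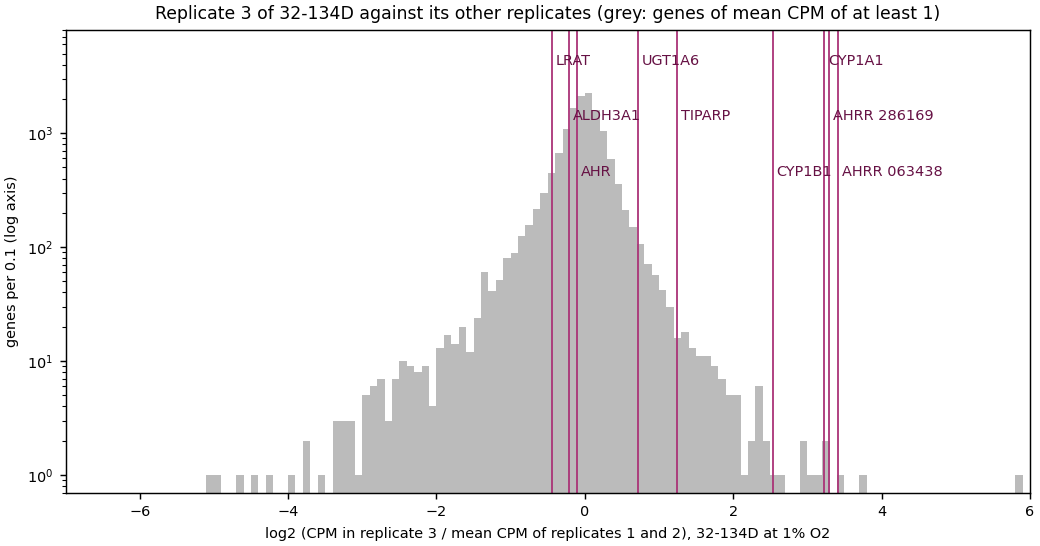
Number of genes (log axis) by the log2 ratio of their CPM in replicate 3 of 32-134D to the mean of replicates 1 and 2, over 13910 genes with a mean CPM of at least 1, with AhR genes as lines. The lines of AHRR, CYP1A1 and CYP1B1 lie between 2.53 and 3.41, beyond the 0.77 at which the central 95% of genes ends, and that of AHR lies at -0.10.

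The related lists that follow were chosen with earlier results of these data known, so their calls and FDRs are a description. In hypoxia, 39.7% of all genes were called in either direction. Of the 11 genes for partners and chaperones of AhR, 5 were called higher in hypoxia and 2 lower. The median log2 fold change of these 11 genes was 0.54, against 0.00 over all genes. Among them, the chaperone HSP90AA1 rose by 1.21 (SE 0.09, edgeR FDR 2.92e-08), PTGES3 by 0.85 (SE 0.08), HSP90AB1 by 0.77 (SE 0.07) and the kinase gene SRC by 0.64 (SE 0.10). The coactivators NCOA2 and NCOA3 fell by 0.99 (SE 0.10) and 0.79 (SE 0.15). ARNT differed by 0.54 (SE 0.08, edgeR FDR 5.93e-05), which is under the fold threshold. With total library size, HSP90AB1 and SRC were no longer called, and SRC was also lost when genes needed 10 counts in each library, and when replicate 1 of either vehicle group was left out.

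With 32-134D at 1% O2 against vehicle at 1% O2, 2 of the 11 were called higher and 2 lower, where 29.9% of all genes were called, and the same 4 were called without replicate 3. NCOA3 was lost without replicate 2 of 32-134D. HSP90AA1 fell by 0.80 (SE 0.09), while NCOA2 rose by 0.81 (SE 0.10) and NCOA3 by 0.65 (SE 0.15), and ARNT was at -0.49 (SE 0.08). Against vehicle at 20% O2, edgeR and DESeq2 called 0 of 11, 5 had an unadjusted p under 0.05, and the log2 differences ran from -0.18 to 0.41, where 3.52% of all genes were called.

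**Figure D4:**
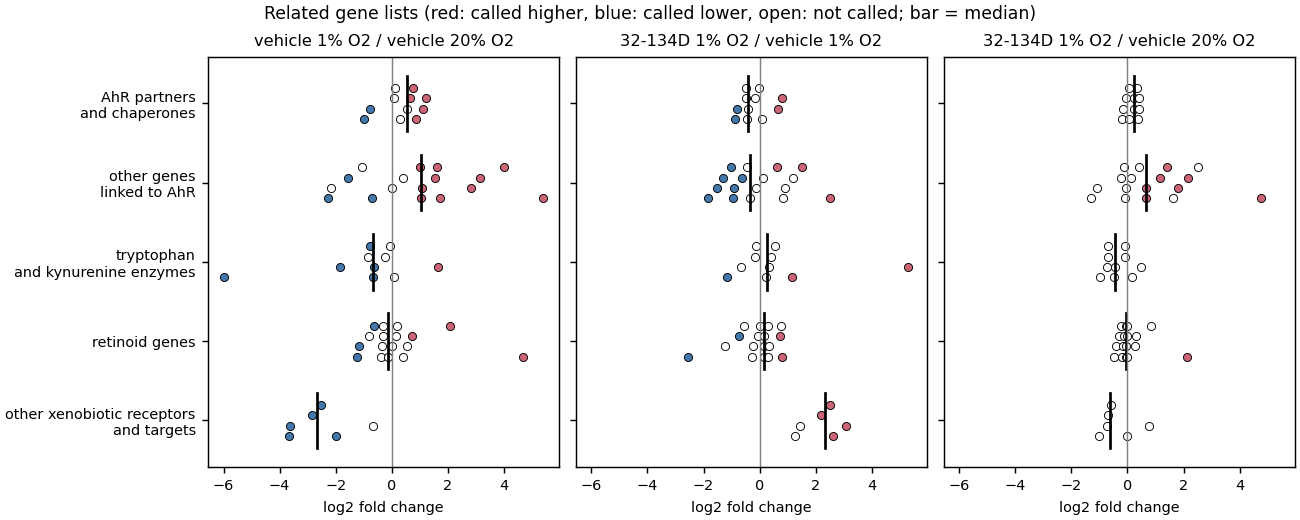
Log2 fold change of the genes tested in 5 related lists (rows) in the 3 comparisons (panels); red points were called higher, blue lower and open points were not called, and the bar is the median of the list. The xenobiotic receptor list had a median of -2.69 in hypoxia and 2.35 with 32-134D against vehicle at 1% O2, and against vehicle at 20% O2 the calls were 7 of the other genes linked to AhR and 1 retinoid gene.

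Of 20 other genes that have been linked to AhR, 17 were tested, and 10 rose and 3 fell in hypoxia, where 19.5% and 20.3% of all genes did, with a median of 1.04 against 0.00 over all genes. The secreted factors IGFBP1, STC2 and FGF21 rose by 5.39 (SE 0.13), 3.99 (SE 0.20) and 2.83 (SE 0.34), and the monooxygenase CYP2S1 by 3.14 (SE 0.55). The scaffold NEDD9, the DNA polymerase POLK, the amino acid carrier SLC7A5, the cell cycle inhibitor CDKN1B, the growth factor EREG and the regulator NFE2L2 rose by 1.71, 1.61, 1.54, 1.09, 1.04 and 1.00. The 3 that fell were GSTA1, a glutathione transferase, at -2.27 (SE 0.55), the efflux pump ABCG2 at -1.58 (SE 0.28) and the quinone reductase NQO1 at -0.72 (SE 0.17). Many of these genes are also known targets of other pathways, HIF among them.

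With 32-134D at 1% O2 against vehicle at 1% O2, 3 of the 17 rose and 7 fell, where 16.2% and 13.7% of all genes did, with a median of -0.33 against -0.01. ABCG2, NQO1 and UGT1A1 rose, by 1.51, 0.61 and 2.52 (0.68 for UGT1A1 without replicate 3), and STC2, CYP2S1, NEDD9, FGF21, CDKN1B, POLK and IGFBP1 fell, from -1.83 for STC2 to -0.64 for IGFBP1. Without replicate 3, 3 rose and 8 fell: NQO1 was lost, and GSTA1 and SLC7A5 (at -0.12, or -0.80 without replicate 3) were gained. The call of IGFBP1 was lost with DESeq2, RLE scaling, total library size, the filter of 10 counts in every library, the 2-group fit and without replicate 1 or 2 of 32-134D. The calls of CYP2S1 and NQO1 were lost without replicate 1 and replicate 3 of vehicle at 1% O2, in that order. Against vehicle at 20% O2, 7 were called higher and 0 lower, where 3% of all genes were called higher: IGFBP1 (4.75), STC2 (2.15), FGF21 (1.81), SLC7A5 (1.42), EREG (1.15), NFE2L2 (0.68) and POLK (0.68). Without replicate 3, EREG (0.54) and POLK were lost and 5 were called, with SLC7A5 at 0.74. EREG was also lost in the 2-group fit and without any single library of vehicle at 20% O2, and FGF21 without replicate 3 of that group. At an unadjusted p under 0.05, 11 of the 17 differed in either direction.

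The enzymes of tryptophan breakdown make the endogenous AhR ligand kynurenine and its products. Of 12, 10 were tested, and in hypoxia 1 rose, 5 fell and 4 were not called, with a median of -0.66, where 19.5% of all genes were called higher and 20.3% lower. TDO2, the liver enzyme that opens the tryptophan ring, fell by 5.97 (SE 0.47, edgeR FDR 6.58e-08), KYNU by 1.85 (SE 0.31), HAAO by 0.77 (SE 0.16), QPRT by 0.69 (SE 0.12) and KYAT3 by 0.64 (SE 0.10), and KMO rose by 1.64 (SE 0.40). TDO2 had 1, 3 and 1 counts in vehicle at 1% O2 and at most 4.23 CPM in any library. The size of its differences from vehicle at 1% O2 is therefore uncertain. IDO1 and IDO2, which catalyse the same first step, had 0 counts in all 9 libraries. With 32-134D at 1% O2 against vehicle at 1% O2, TDO2 rose by 5.29 (SE 0.48, edgeR FDR 5.63e-07) and KYNU by 1.16 (SE 0.30), and KMO fell by 1.16 (SE 0.35). These 3 of 10 were the genes called, where 29.9% of all genes were called in either direction. The same 3 genes were called without replicate 3, and KMO was lost without replicate 3 of vehicle at 1% O2 or replicate 1 of 32-134D. Relative to vehicle at 20% O2, edgeR and DESeq2 called 0 of 10, with 4 at an unadjusted p under 0.05 and TDO2 at -0.68 (SE 0.28).

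Retinoid genes, among them the CYP26 enzymes and the retinoic acid receptors, were set beside LRAT, which esterifies retinol for storage. Of 20, 17 were tested, and 3 rose and 3 fell in hypoxia, a share near the 39.7% of all genes called in either direction, with a median of -0.14. CRABP2, a carrier of retinoic acid, rose by 4.69 (SE 0.14), CYP26A1 by 2.07 (SE 0.66) and the receptor RARB by 0.73 (SE 0.23). The call of RARB was lost with DESeq2, with total library size and without replicate 1 or 3 of vehicle at 20% O2 or replicate 1 of vehicle at 1% O2. CYP26B1 fell by 1.23 (SE 0.14), the receptor RXRA by 1.18 (SE 0.14) and the plasma carrier RBP4 by 0.62 (SE 0.12). CYP26A1 was lost without replicate 3 of vehicle at 20% O2, and RBP4 without replicate 1 of vehicle at 1% O2. With 32-134D at 1% O2 against vehicle at 1% O2, CYP26B1 and RXRA rose, by 0.81 and 0.71, and CRABP2 and RARB fell, by 2.56 and 0.73, the call of RARB being lost with total library size and without replicate 1 of vehicle at 1% O2. In the fit of 9 libraries 29.9% of all genes were called in that comparison. Without replicate 3, 7 retinoid genes were called, with DHRS3, CYP26A1 and ALDH1A2 added. CRABP2, at 2.13 (SE 0.14), was the single call of 17 against vehicle at 20% O2.

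The receptors CAR (NR1I3) and PXR (NR1I2), which sense foreign chemicals apart from AhR, were set beside the cytochromes they control. Of 8 genes, 6 were tested, and in hypoxia 0 rose and 5 fell, where 19.5% and 20.3% of all genes did, with a median of -2.69. DESeq2 called 0 higher and 4 lower, and all 5 genes with an unadjusted p under 0.05 were lower. Among them, the log2 fold change was -3.66 for CYP3A7 (SE 0.56), -3.63 for CYP3A5 (SE 0.40), -2.51 for CYP2C8 (SE 0.87) and -1.98 for NR1I3 (SE 0.58), and CYP2B6 was at -0.68 (SE 0.68). The call of CYP2C8 in hypoxia was lost with DESeq2, with the replicate block and without replicate 1 or 3 of vehicle at 20% O2 or replicate 1 or 2 of vehicle at 1% O2. With 32-134D at 1% O2 against vehicle at 1% O2, 4 rose and 0 fell, where 16.2% and 13.7% of all genes did. Among the 4 were CYP3A5 at 3.07 (SE 0.40), CYP3A7 at 2.63 (SE 0.57) and CYP2C8 at 2.51 (SE 0.81). Counts were low in vehicle at 1% O2: CYP3A5 had 3, 4 and 5, CYP3A7 9, 6 and 4, and CYP2C8 1, 0 and 2. Without replicate 3, NR1I3 was also called, and without replicate 1 of vehicle at 1% O2 the number was 2. CYP2C8 was among those lost, also without replicate 2 of vehicle at 1% O2. Compared with vehicle at 20% O2, edgeR and DESeq2 called 0 of 6, with 1 at an unadjusted p under 0.05. NR1I2 had 0 counts and CYP3A4 had 6 counts in all, so neither was tested. Without replicate 3, the calls against vehicle at 20% O2 remained 0 for the partners and chaperones, the tryptophan list and the xenobiotic receptor list, and 1, CRABP2, for the retinoid list.

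Genes other than the members with the pattern most like CYP1A1 over the 9 libraries were sought by Pearson r of log2 CPM among 13903 genes. They were WLS (0.955), PTBP3 (0.946), the pseudogene ACTG1P20 (0.943), KLHL5 (0.938) and TMEM33 (0.935). Their range was far smaller: WLS ran from 40.7 to 64.5 CPM and KLHL5 from 184 to 398 CPM, against 1.07 to 1086 CPM for CYP1A1. The genes most like AHR were TAMALIN (0.928), MAL2 (0.883), RIDA (0.877), LINC02245 (0.862) and TARDBP (0.848). AHR varied only between 115 and 131 CPM, so its likenesses rest on small differences between libraries.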

How the data were processed

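RNA-seq of Hep3B cells gave 9 libraries, 3 in each group. The deposited file holds raw counts of reads per Ensembl gene, which the authors made with FastQC, Bbduk, STAR, GRCh38 and featureCounts, with versions and the strand setting not given in the sources used here. Columns were matched to samples by name and 0 were left unmapped. Replicate pairs differed by more than counting error (chi-square per degree of freedom of 1.62 to 36.4), so no library was a duplicate.

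Comparisons used the quasi-likelihood test of edgeR 4.0.16 (R 4.3.3) after TMM scaling, fitted once to all 9 libraries, over 22672 genes with counts summing to at least 10. Calls needed a Benjamini-Hochberg FDR below 0.05, over all genes tested, and a fold change above 1.5. The common biological coefficient of variation was 10.5%. Standard errors are the log2 fold change over the square root of F. Correlations used log2 CPM with a prior count of 2 and genes with a mean CPM of at least 1. Positions are from GENCODE 29, in which AHRR record ENSG00000286169 was not found.

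The 9 members and the related lists were chosen with earlier results of these data known. Genes named are the members, the list genes past both thresholds or needed to complete a count, and the 5 genes most like CYP1A1 and AHR. Some list genes are counted but their values are not reported here. The alternatives were DESeq2 1.42.0, RLE scaling, total library size, other filters and thresholds, 2-group fits, a replicate block and omission of single libraries. Leaving replicate 3 of 32-134D out of the hypoxia comparison was chosen after seeing the data. Depth ran from 6013980 to 40549699 counts.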

Additional observations from a re-analysis of the deposited data

How the results depend on the processing

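None of the called genes of the related lists changed sign under an alternative fit, but the median of the retinoid list with 32-134D against vehicle at 1% O2 went from 0.16 to -0.02 without replicate 3 of 32-134D. The directions of several members turned. For AHR against vehicle at 20% O2 the log2 difference of 0.01 became -0.02 with total library size and -0.01 with genes of at least 10 counts in every library, and ran from -0.03 to 0.06 with a library left out. In the hypoxia comparison, CYP1B1 ran from -0.24 to 0.08 and CYP1A2 from -2.30 to 1.82 with a library left out. With 32-134D, TIPARP against vehicle at 1% O2 ran from -0.45 to 0.38 and UGT1A6 against vehicle at 20% O2 from -0.13 to 0.31.

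Libraries of the same replicate number showed no shared deviation: over 9 such pairs the correlation of deviations from group means was -0.0322 to 0.00525. Pairs of different number ran from -0.0171 to 0.0373. The labels do not say whether cultures of the same number were handled together, and these correlations cannot show it. With the replicate block, all genes called were 4296 higher and 4375 lower in hypoxia (4412 and 4595 without it). The block gave 0.29 and 0.08 for the AHRR records ENSG00000063438 and ENSG00000286169 and 0.11 for CYP1B1 in hypoxia, and -0.00 for TIPARP with 32-134D against vehicle at 1% O2.

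Records past both thresholds upward with 32-134D, a description since the members were chosen on it, were 2 by DESeq2 against vehicle at 1% O2. Against vehicle at 20% O2 they were 2 in the 2-group fit and 2 to 5 with a library left out, 2 without any one of the vehicle libraries at 20% O2. In hypoxia 1 member was called lower with no filter and in the 2-group fit, and 0 to 1 with a library left out. DESeq2 gave no adjusted p for CYP1A1 and the main AHRR record in any comparison, nor for CYP1A2 against vehicle at 20% O2. These records could therefore not be called by DESeq2 in those comparisons, and the cause was not tested. Genes called with no fold change threshold were 8 partners and chaperones, 8 retinoid and 5 tryptophan genes with 32-134D against vehicle at 1% O2, and 3, 2 and 1 against vehicle at 20% O2, and 10 retinoid genes in hypoxia. With at least 10 counts in every library, fewer genes were tested and the counts were 6 for other genes linked to AhR with 32-134D against vehicle at 1% O2 and 0 for the xenobiotic receptor list in that comparison and in hypoxia. With no filter, 1 xenobiotic receptor list gene and 1 tryptophan gene were called against vehicle at 20% O2. Total library size gave 5 tryptophan genes against vehicle at 1% O2. With a library left out, calls against vehicle at 1% O2 were 2 to 5 in the xenobiotic receptor list and 4 to 7 among retinoid genes, and 1 to 2 retinoid genes against vehicle at 20% O2. With 3 replicates and 6013980 counts in the smallest library, members under 2 CPM were limited by depth.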
